A study of Mus musculus with 89 samples.

Results

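The genes described here are orthologues of genes on human chromosome 21 (Hsa21) that lie outside the extra chromosome of both Down syndrome mouse models. They sit on mouse chromosomes 10 (Mmu10) and 17 (Mmu17), on Mmu17 distal to the piece that is extra in the Ts65Dn model. Every group of the study carries the usual pair of copies of each gene. The list was set by gene name and position, and no signal value enters its rule. It holds 46 genes, 16 on Mmu17 and 30 on Mmu10. On the array, 44 of them were measured by 1 probe set each, 16 of 16 on Mmu17 and 28 of 30 on Mmu10, out of 22206 probe sets in all. Ube2g2 and Prmt2 matched no probe set by name and were not analysed here. No member was lost to a filter on signal, because none was applied.

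Forebrain RNA of 89 mouse embryos of day 18.5 of gestation was hybridised one by one to Clariom S high throughput arrays. Ts65Dn (n = 23) carries a freely segregating extra chromosome made of a distal piece of Mmu16, rich in Hsa21 orthologues, and a proximal piece of Mmu17 with no Hsa21 orthologue. EupTs65Dn (n = 18) are its littermates without the extra chromosome. Ts66Yah (n = 24) carries the Mmu16 piece without the Mmu17 piece, and EupTs66Yah (n = 24) are the euploid littermates of that colony. Both colonies were kept on a mixed C57BL/6 and C3H background and gave 6 litters each. Ts65Dn males are infertile, so all Ts65Dn embryos inherited the extra chromosome from the dam, while the Ts66Yah colony was expanded by in vitro fertilization with sperm of Ts66Yah males. The sex labels, which part of the arrays contradict, named 13 females and 10 males in Ts65Dn, 9 and 9 in EupTs65Dn, 13 and 11 in Ts66Yah, and 11 and 13 in EupTs66Yah.

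In people with trisomy 21 all these genes are present in an extra copy, whereas in these mice only the Mmu16 share of the orthologues is. A gene with an extra copy commonly yields about that much more transcript, and the members here lack that extra copy in both models. The members include the vessel and cell matrix collagens, cystathionine beta-synthase of sulphur amino acid metabolism, the folate carrier, an RNA editing enzyme, a splicing factor and the astrocyte protein S100b. Several have been put forward in the literature as contributors to features of Down syndrome.

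The values are log2 signals, and the 2 colonies lay on different scales: the array means centred on medians of 5.30 in both groups of the Ts65Dn colony and on 6.39 and 6.38 in Ts66Yah and EupTs66Yah. Each trisomic group was therefore set only against its own euploid group, and levels were not compared between colonies. EupTs66Yah replicate 16 had a standard deviation (SD) across probe sets of 1.13, against 2.23 to 2.39 in the other arrays of its group. On it 24 members had the lowest value of the group and 10 the highest. Ts66Yah values leave out this low-spread array (EupTs66Yah n = 23) unless stated. Beside each member's Ts66Yah change stands the change with it kept, named as that of all arrays where it is in brackets. Keeping it turned the sign of the change in 10 of the 44 members and moved it by over 1.5 times in 20 more. By their triplicated Mmu16 genes 4 arrays resembled the opposite genotype: Ts65Dn replicate 18, Ts66Yah replicates 13 and 24, and EupTs66Yah replicate 24. By 3 Y-linked genes, 16 of the 88 other arrays went against their sex label, 1 of them also among these 4. All were kept under their labels, and whether samples were exchanged was not tested. Without the 19 arrays in doubt, an alternative chosen after the data were seen, 0 members passed in Ts65Dn or in Ts66Yah. The share of all probe sets passing in that setting is not given here, so this 0 is not read as a result about the members. The mean of 8 forebrain markers ranged from 7.91 to 8.28 in Ts65Dn, 7.93 to 8.40 in EupTs65Dn, 8.43 to 9.10 in Ts66Yah and 8.32 to 8.89 in EupTs66Yah. The mean of 7 midbrain and hindbrain markers varied more in the Ts66Yah colony, from 4.72 to 6.84 in Ts66Yah and 5.15 to 6.93 in EupTs66Yah, than in the other, where it ran from 3.85 to 4.52 in Ts65Dn and 3.67 to 4.34 in EupTs65Dn. In whole tissue, fewer cells of a type and less RNA per cell cannot be told apart.

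The first question was whether the disomic orthologues changed in Ts65Dn forebrain. None of the 44 measured members passed the test (limma, p adjusted by Benjamini-Hochberg across the whole array, threshold 0.10), while 0.491% of all probe sets did. At an unadjusted p under 0.05 there was 1 member, Col18a1, or 2.27%, against 5.79% of all probe sets. By the median member, Ts65Dn stood 1.03-fold (log2 0.039) over EupTs65Dn, beside -0.0021 for all probe sets, and 23 of 44 had the higher mean in Ts65Dn, against 49.0% of probe sets. The 16 Mmu17 members had a median log2 change of 0.050 and the 28 Mmu10 members one of -0.0060. With 1 litter left out the median over all members turned to -0.0071.

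The triplicated genes gave the size of change to set these against. The 85 measured Hsa21 orthologues of the Mmu16 piece had a median of 1.33-fold (log2 0.41) in Ts65Dn, and 55 of them passed. The kinase gene Dyrk1a had a fold change of 1.32 (adjusted p = 1.1e-06), the superoxide dismutase gene Sod1 one of 1.40 (adjusted p = 3.6e-07) and the amyloid precursor gene App one of 1.30 (adjusted p = 6.5e-08). For 40 of the 44 disomic members the whole 95% confidence interval of the change lay below that Mmu16 median, and for 25 it lay inside the ratios 0.8 to 1.2. The intervals of Rsph1, Col18a1, Itgb2 and Dnmt3l reached past it, with upper bounds of 1.35-fold, 1.45-fold, 1.48-fold and 1.42-fold. Of the 16 members below the median signal, 13 were among the 40. In the triplicated list 4 of 85 genes had a change below 0 as well. An interval below the triplicated median therefore does not by itself tell a disomic gene from a triplicated one. The ranges of the trisomic and euploid embryos overlapped for all 44. How often such ranges overlap over all probe sets was not counted, so the overlap does not set the members apart.

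**Figure D1:**
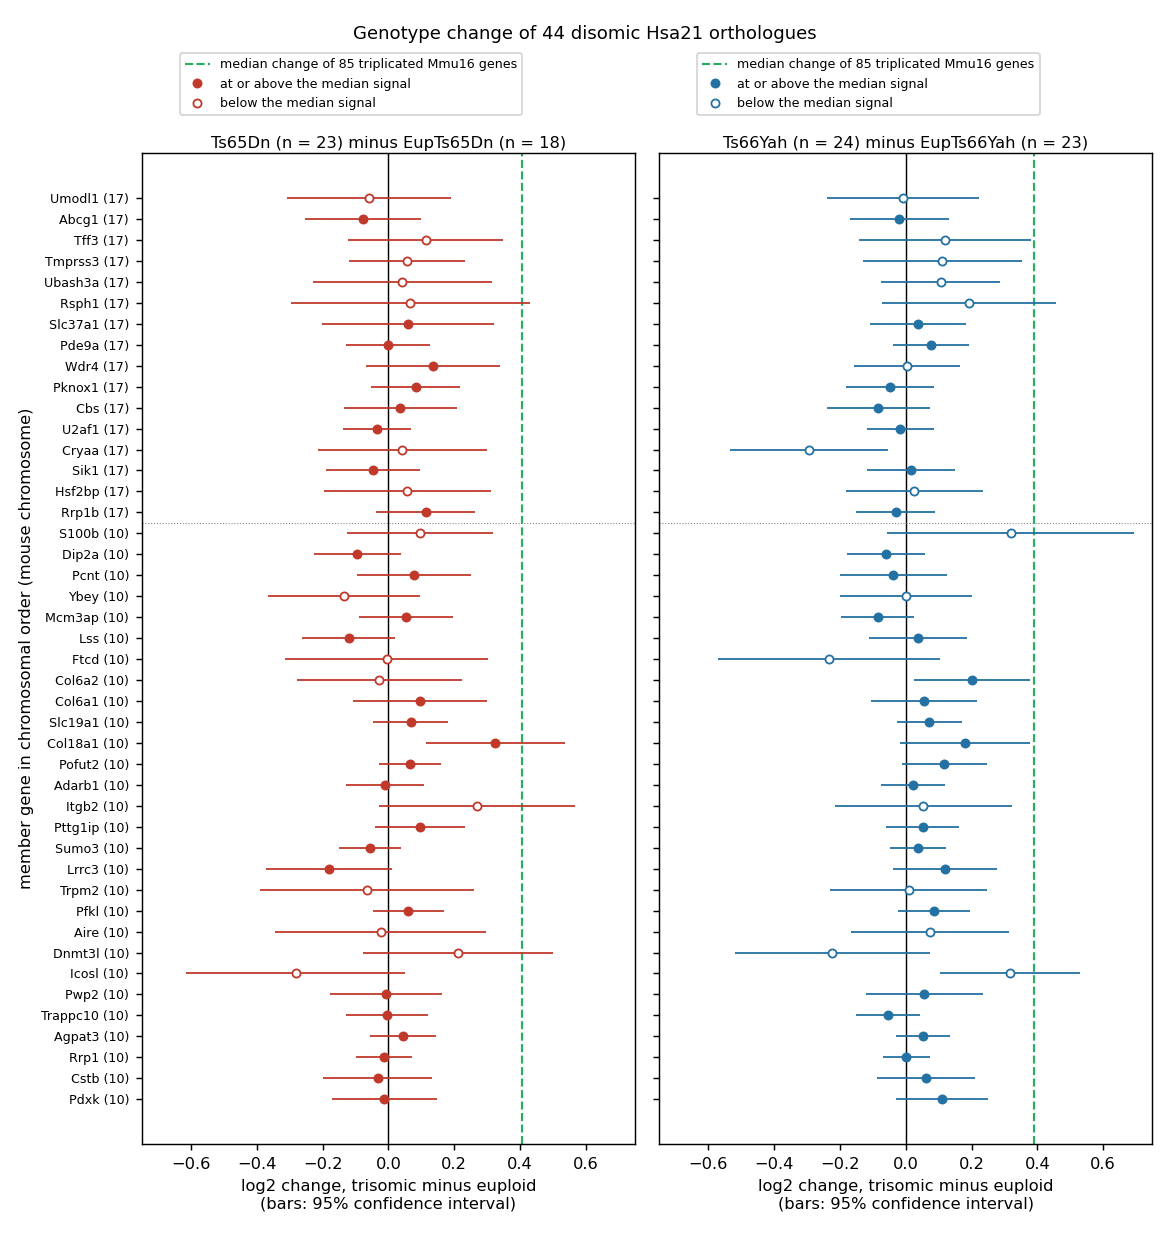
Log2 change of each measured member, Ts65Dn minus EupTs65Dn (left) and Ts66Yah minus EupTs66Yah without the low-spread array (right), in gene order with the mouse chromosome in brackets; points are limma estimates, bars their 95% confidence intervals, and open points are probe sets below the median signal. The dashed line marks the median change of the 85 triplicated Mmu16 genes, log2 0.41 on the left and 0.39 on the right; 40 intervals on the left and 41 on the right end below it.

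The same question was asked of Ts66Yah, which lacks the extra Mmu17 piece. Without the low-spread array 0 of 44 members passed, against 0.932% of all probe sets, and with it 0 of 44 against 0.171%. Unadjusted p was under 0.05 for 3 members without that array, Icosl, Cryaa and Col6a2, or 6.82% against 12.1% of all probe sets, and with it for 3 or 6.82% against 10.2%. The median member stood at 1.03-fold (log2 0.038, beside 0.0044 for all probe sets) without the array and at log2 0.066 (beside 0.043) with it. In both settings 31 of 44 members had the higher mean in Ts66Yah, against 51.6% of probe sets without the array and 58.6% with it. Of these 31 without it, 22 belonged to the 28 on Mmu10 and 9 to the 16 on Mmu17. With each array centred on its median, the median member change without the low-spread array turned to -0.0061.

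In Ts66Yah the triplicated genes had a median of 1.31-fold (log2 0.39), with 59 of 85 called, without the low-spread array, and of log2 0.46 with 26 called when it was kept. Without it Dyrk1a had a fold change of 1.33 (adjusted p = 1.7e-07), App one of 1.27 (adjusted p = 1.7e-06) and Sod1 one of 1.26 (adjusted p = 5.1e-05). With all arrays Dyrk1a was at 1.43-fold (adjusted p = 0.0533), and the calls of App (1.52-fold, adjusted p = 0.426) and Sod1 (1.40-fold, adjusted p = 0.282) were lost. The 95% interval ended below the triplicated median for 41 of 44 members, all but Rsph1, S100b and Icosl, and lay inside 0.8 to 1.2 for 30. With the low-spread array these counts were 35 and 13. Sumo3, for example, read 5.43 on it against 9.71 to 10.08 on the other arrays of the group. All 28 members at or above the median signal had intervals below the triplicated median without it, and 22 of 28 with it. Among members of lower signal the intervals were wider, with a median SE of 0.12 against 0.066. Of these 16 members 13 had intervals below the triplicated median without the low-spread array. There 8 of the 85 triplicated genes had a change below 0 themselves, so the same limit holds.

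**Figure D2:**
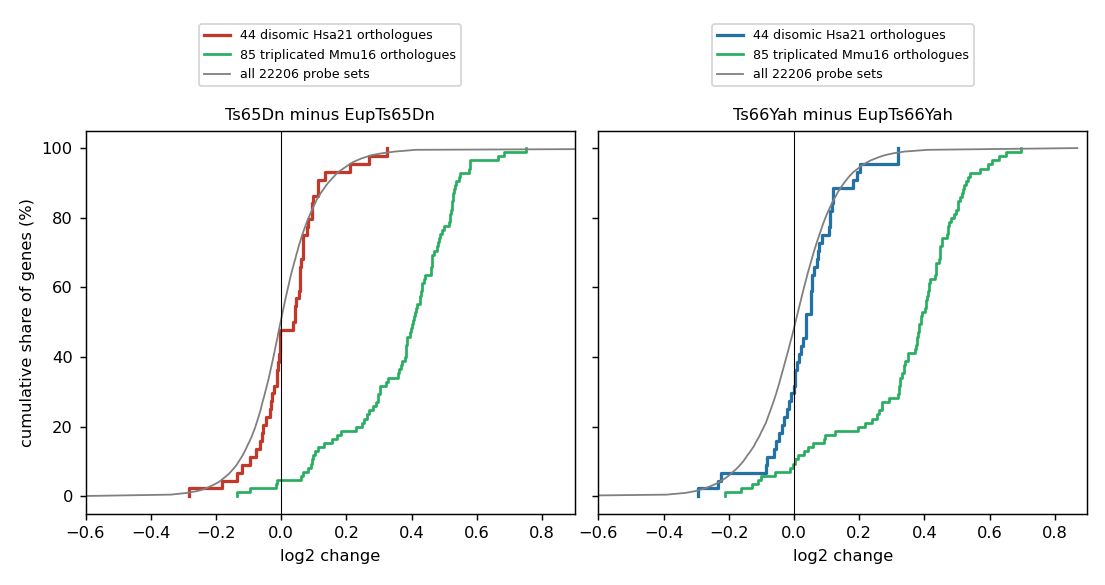
Cumulative share of genes, in percent, by log2 change in Ts65Dn minus EupTs65Dn (left) and Ts66Yah minus EupTs66Yah without the low-spread array (right). The 44 disomic orthologues have medians of 0.039 and 0.038, beside -0.0021 and 0.0044 for all 22206 probe sets. The 85 triplicated orthologues lie to the right with medians of 0.41 and 0.39. Above 0 lie 23 of 44 disomic orthologues on the left, against 49.0% of probe sets, and 31 of 44 on the right, against 51.6%.

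Averaged over the 44 members, each embryo gave a mean that hardly separated the genotypes. It was 5.835 ± 0.055 in Ts65Dn (SD, n = 23) and 5.813 ± 0.049 in EupTs65Dn (n = 18), a difference of 0.022 (SE 0.016). In the other colony it was 6.875 ± 0.052 in Ts66Yah (n = 24) and 6.840 ± 0.056 in EupTs66Yah (n = 23), a difference of 0.035 (SE 0.016). Above the euploid median lay 17 of 23 Ts65Dn and 17 of 24 Ts66Yah embryos, and above every euploid embryo only 1 and 2 of them. The mean of the 85 triplicated genes differed by 0.37 (SE 0.021) in the Ts65Dn colony, with 22 of 23 trisomic embryos above every euploid one. It differed by 0.34 (SE 0.032) in the Ts66Yah colony, where 9 of 24 lay above every euploid embryo, the highest of those being EupTs66Yah replicate 24.

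**Figure D3:**
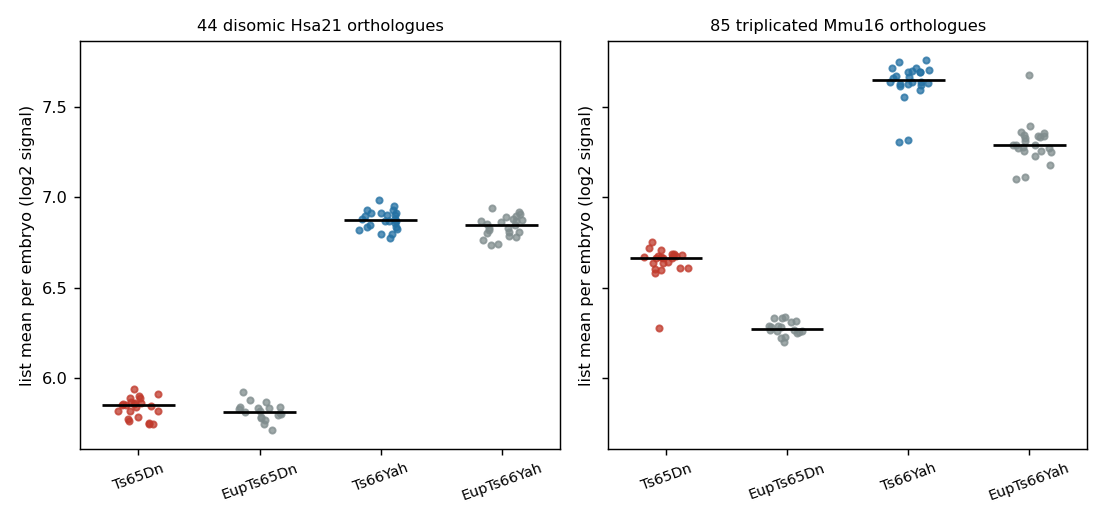
Mean log2 signal per embryo of the 44 disomic orthologues (left) and of the 85 triplicated Mmu16 orthologues (right) in the 4 groups, with each embryo a point, bars at the group medians and the low-spread array left out. The disomic means of trisomic and euploid embryos overlap almost fully, whereas the triplicated means part except for the 4 embryos that resemble the opposite genotype.

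Matrix genes held the member with the smallest p in Ts65Dn. Col18a1 encodes the chain of collagen XVIII, a basement membrane collagen of vessels and neuroepithelium and the source of endostatin. Its lowest, median and highest log2 signals were 4.75, 5.54 and 6.04 in Ts65Dn embryos, against 4.56, 5.20 and 5.95 in EupTs65Dn embryos. The Ts65Dn values lay higher as a group, 20 of 23 of them above the euploid median, but the ranges overlapped. The change was 1.25-fold (95% interval 1.08 to 1.45, log2 0.32 (SE 0.10), p = 0.00341), and it did not pass (adjusted p = 0.366). Under the marginal criterion that the series names (a ratio outside 0.8 to 1.2 and an unadjusted p below 0.01), Col18a1 was the 1 member picked in Ts65Dn, where 1.11% of probe sets met it. In the other colony its signals were 5.69, 6.44 and 7.08 in Ts66Yah embryos, against 5.50, 6.29 and 6.88 in EupTs66Yah embryos, with 18 of 24 above the euploid median. The log2 change there was 0.18 (SE 0.099), adjusted p = 0.468, and 0.18 with the low-spread array kept.

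Col6a1 and Col6a2 encode chains of collagen VI, a microfibril of the matrix around cells, and are neighbours on Mmu10. Col6a2 signals were 6.12, 6.85 and 7.34 in Ts66Yah embryos, against 5.93, 6.62 and 7.46 in EupTs66Yah embryos, and 21 of 24 Ts66Yah embryos lay above the euploid median. The change was 1.15-fold (log2 0.20 (SE 0.088), adjusted p = 0.340), and with the low-spread array 1.17-fold (adjusted p = 0.423). In the Ts65Dn colony Col6a2 measured 4.55, 5.24 and 5.99 in Ts65Dn embryos, against 4.10, 5.37 and 5.96 in EupTs65Dn embryos, a log2 change of -0.028 (SE 0.12) with no clear side. Col6a1 measured 4.83, 5.30 and 6.14 in Ts65Dn embryos, against 4.47, 5.30 and 5.71 in EupTs65Dn embryos, a log2 change of 0.097 (SE 0.10). The Ts66Yah colony gave 5.96, 6.55 and 7.03 in Ts66Yah embryos, against 5.90, 6.48 and 6.92 in EupTs66Yah embryos, a log2 change of 0.056 (SE 0.080, all arrays 0.063). For both collagen VI genes the trisomic and euploid ranges overlapped in both models.

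Pofut2, which adds O-fucose to secreted matrix and adhesion proteins, showed 7.10, 7.41 and 7.82 in Ts66Yah embryos, against 6.79, 7.28 and 7.75 in EupTs66Yah embryos. 19 of 24 Ts66Yah embryos were above the euploid median, and the log2 change was 0.12 (SE 0.064, all arrays 0.15), adjusted p = 0.471. Its Ts65Dn colony values were 6.34, 6.61 and 6.96 in Ts65Dn embryos, against 6.29, 6.58 and 6.76 in EupTs65Dn embryos, a log2 change of 0.067 (SE 0.047). Markers of pericytes and meninges, which make much of the brain's collagen, had mostly higher means in both trisomic groups without passing. The 10 markers had the higher mean in Ts65Dn for 7 (median log2 change 0.075) and in Ts66Yah for 10 (median 0.11, and 0.16 with all arrays). Their mean per embryo ran from 6.57 to 7.21 in Ts65Dn against 6.31 to 7.10 in EupTs65Dn. It ran from 7.74 to 8.40 in Ts66Yah against 7.44 to 8.30 in EupTs66Yah. For Col6a1 the correlation with their mean over embryos was 0.26 in Ts65Dn, 0.33 in EupTs65Dn, 0.31 in Ts66Yah and 0.15 in EupTs66Yah, with permutation p adjusted over 24 correlations of 0.551, 0.443, 0.409 and 0.767. Endothelial markers were higher for 3 of 8 in Ts65Dn (median log2 change -0.013). In Ts66Yah they were higher for 5 of 8 (median 0.10, and 8 of 8 at 0.17 with all arrays). The collagen VI and basement membrane partners were higher for 9 of 18 in Ts65Dn (median 0.0016). In Ts66Yah they were higher for 14 of 18 (median 0.066, and 16 of 18 at 0.12 with all arrays). The part of any of these cell types in the Col18a1 and Col6a2 values was not tested.

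**Figure D4:**
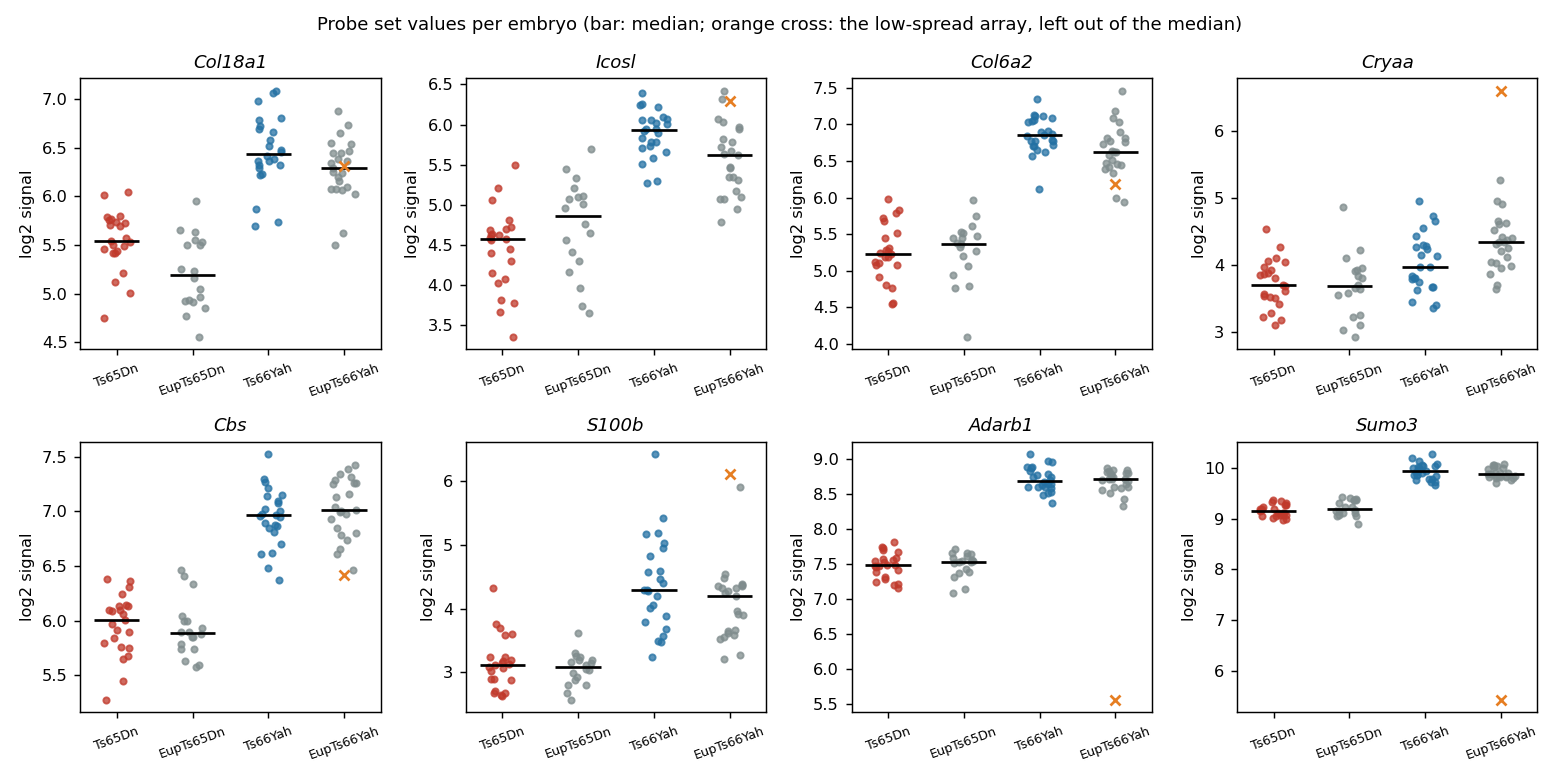
Log2 signal per embryo of 8 members in the 4 groups, with a bar at each median and an orange cross for the low-spread array, which is left out of the median. Col18a1 sits higher in Ts65Dn (median 5.54 against 5.20) and Icosl higher in Ts66Yah (5.93 against 5.62), and in every panel the trisomic and euploid ranges overlap.

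Immune genes included Icosl, the member with the smallest p in Ts66Yah without the low-spread array, which ranked after Cryaa with it. Icosl encodes the ligand of the T cell costimulator ICOS and is carried mainly by antigen presenting cells. Its probe set lay below the median signal in both colonies. Its signals were 5.27, 5.93 and 6.40 in Ts66Yah embryos, against 4.79, 5.62 and 6.42 in EupTs66Yah embryos, with 20 of 24 Ts66Yah embryos above the euploid median. The change was 1.25-fold (95% interval 1.08 to 1.45, log2 0.32 (SE 0.11, all arrays 0.29), p = 0.00419) and did not pass (adjusted p = 0.187, and 0.399 with the low-spread array). It was the 1 member to meet the marginal criterion in Ts66Yah without that array, where 1.90% of probe sets met it, and 0 of 44 did with it, against 2.13%. In the Ts65Dn colony Icosl lay on the other side, with 3.36, 4.58 and 5.50 in Ts65Dn embryos, against 3.65, 4.86 and 5.70 in EupTs65Dn embryos. Only 3 of 23 Ts65Dn embryos were above the euploid median, and the log2 change was -0.28 (SE 0.17), adjusted p = 0.911.

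Itgb2 encodes the beta chain of the leukocyte integrins, found in brain on microglia. It measured 2.23, 3.36 and 4.15 in Ts65Dn embryos, against 2.37, 3.00 and 4.61 in EupTs65Dn embryos. The medians differed, with 20 of 23 Ts65Dn embryos above the euploid one, yet the highest value was euploid. The log2 change was 0.27 (SE 0.15), adjusted p = 0.893. In the Ts66Yah colony it measured 2.56, 4.41 and 4.94 in Ts66Yah embryos, against 2.87, 4.38 and 5.01 in EupTs66Yah embryos, a log2 change of 0.054 (SE 0.13, all arrays -0.028). Of 10 microglial markers 4 had the higher mean in Ts65Dn and 7 in Ts66Yah, with median log2 changes of -0.014 and 0.065 (0.11 with all arrays) and 0 called. Their mean per embryo spanned 4.60 to 5.27 in Ts65Dn against 4.52 to 5.13 in EupTs65Dn, and 5.74 to 6.46 in Ts66Yah against 5.80 to 6.29 in EupTs66Yah. Trpm2, a calcium-permeable channel opened by oxidative stress, measured 2.48, 3.62 and 4.51 in Ts65Dn embryos, against 2.97, 3.56 and 4.69 in EupTs65Dn embryos. Its other colony gave 4.45, 5.52 and 6.01 in Ts66Yah embryos, against 4.78, 5.37 and 6.18 in EupTs66Yah embryos, and the log2 changes were -0.066 (SE 0.16) in Ts65Dn and 0.0086 (SE 0.12, all arrays 0.014) in Ts66Yah. Ubash3a, a suppressor of T cell receptor signalling, stood at 0.043 (SE 0.13) and 0.11 (SE 0.090, all arrays 0.020). Aire, the thymic regulator of self-antigen expression, stood at -0.023 (SE 0.16) in Ts65Dn and 0.074 (SE 0.12, all arrays 0.035) in Ts66Yah. The probe sets of Itgb2, Trpm2, Ubash3a and Aire also lay below the median signal in both colonies.

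Genes of sulphur amino acid and folate metabolism were not called in either model, as no member was. At 0.491% of probe sets called in Ts65Dn and 0.932% in Ts66Yah, this is not read as a result about these pathways. Cbs encodes cystathionine beta-synthase, which commits homocysteine to cysteine synthesis. It measured 5.28, 6.01 and 6.38 in Ts65Dn embryos, against 5.58, 5.88 and 6.46 in EupTs65Dn embryos, a log2 change of 0.036 (SE 0.085). In the Ts66Yah colony it measured 6.37, 6.96 and 7.52 in Ts66Yah embryos, against 6.46, 7.01 and 7.42 in EupTs66Yah embryos, a change of -0.083 (SE 0.078, all arrays -0.058). The 95% interval of its fold was 0.911 to 1.16 in Ts65Dn and 0.847 to 1.05 in Ts66Yah (0.853 to 1.08 with all arrays). The triplicated median of the same comparison lay above each. Slc19a1, the reduced folate carrier, measured 7.37, 7.71 and 8.09 in Ts65Dn embryos, against 7.25, 7.63 and 7.94 in EupTs65Dn embryos, and 17 of 23 Ts65Dn embryos lay above the euploid median. Its Ts66Yah colony values were 7.99, 8.28 and 8.48 in Ts66Yah embryos, against 7.87, 8.22 and 8.45 in EupTs66Yah embryos. The log2 changes were 0.067 (SE 0.057) in Ts65Dn and 0.071 (SE 0.049) in Ts66Yah, and 0.23 in Ts66Yah when the low-spread array, at 4.41, was kept. Ftcd, a folate-linked enzyme of histidine breakdown, had log2 changes of -0.0048 (SE 0.15) and -0.23 (SE 0.17, all arrays -0.30).

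The lipid genes were not called, as no member was. With the small shares of probe sets called, given above, this is not read as a result about them. Lss encodes lanosterol synthase, which closes the sterol ring in cholesterol synthesis. It measured 8.08, 8.46 and 8.92 in Ts65Dn embryos, against 8.06, 8.69 and 9.03 in EupTs65Dn embryos, and only 5 of 23 Ts65Dn embryos exceeded the euploid median. The log2 change was -0.12 (SE 0.070), adjusted p = 0.908. In the Ts66Yah colony the values were 9.03, 9.47 and 9.81 in Ts66Yah embryos, against 8.61, 9.47 and 9.83 in EupTs66Yah embryos, a change of 0.038 (SE 0.074), and of 0.20 with the low-spread array, which read 5.53. Abcg1, a cholesterol exporter, measured 5.33, 5.88 and 6.39 in Ts65Dn embryos, against 5.51, 5.95 and 6.55 in EupTs65Dn embryos. It gave 5.71, 6.41 and 6.87 in Ts66Yah embryos, against 5.91, 6.38 and 6.90 in EupTs66Yah embryos, and the log2 changes were -0.078 (SE 0.087) in Ts65Dn and -0.020 (SE 0.075, all arrays 0.070) in Ts66Yah. Agpat3, an acyltransferase of phospholipid synthesis, stood at 0.044 (SE 0.049) in Ts65Dn and 0.052 (SE 0.041, all arrays 0.23) in Ts66Yah.

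Pfkl encodes the liver-type phosphofructokinase of glycolysis. Its signals were 7.42, 7.68 and 8.02 in Ts65Dn embryos, against 7.23, 7.67 and 7.96 in EupTs65Dn embryos, a log2 change of 0.060 (SE 0.054). They were 8.31, 8.68 and 9.18 in Ts66Yah embryos, against 8.17, 8.57 and 8.93 in EupTs66Yah embryos, a change of 0.087 (SE 0.055, all arrays 0.14), with 18 of 24 Ts66Yah embryos above the euploid median. Pdxk, the kinase that makes active vitamin B6, measured 6.51, 7.19 and 7.72 in Ts65Dn embryos, against 6.84, 7.22 and 7.54 in EupTs65Dn embryos. Its Ts66Yah colony values were 7.65, 8.29 and 8.79 in Ts66Yah embryos, against 7.65, 8.18 and 8.49 in EupTs66Yah embryos, where 20 of 24 Ts66Yah embryos lay above the euploid median. The log2 changes of Pdxk were -0.012 (SE 0.079) in Ts65Dn and 0.11 (SE 0.070, all arrays 0.23) in Ts66Yah (adjusted p = 0.540). Pde9a, which breaks down cyclic GMP, stood at -0.0024 (SE 0.063) and 0.075 (SE 0.057, all arrays 0.12), and the sugar phosphate transporter Slc37a1 at 0.058 (SE 0.13) and 0.037 (SE 0.072, all arrays 0.037), each in Ts65Dn and then Ts66Yah.

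Members that handle RNA were not called either, which is again not read as a result about them. For several of them the intervals were narrow where the low-spread array was left out. Adarb1 encodes ADAR2, the enzyme that edits adenosines in glutamate receptor transcripts. It measured 7.16, 7.48 and 7.81 in Ts65Dn embryos, against 7.09, 7.53 and 7.72 in EupTs65Dn embryos, a log2 change of -0.0094 (SE 0.059) and a fold interval of 0.915 to 1.08. In the Ts66Yah colony it measured 8.36, 8.68 and 9.06 in Ts66Yah embryos, against 8.32, 8.71 and 8.86 in EupTs66Yah embryos, a change of 0.021 (SE 0.048, all arrays 0.15) and an interval of 0.948 to 1.08, which widened to 0.919 to 1.34 with all arrays. Transcript level was measured here, not editing. U2af1, the small subunit of the factor that recognises the 3′ splice site, measured 8.0, 8.25 and 8.45 in Ts65Dn embryos, against 8.01, 8.30 and 8.57 in EupTs65Dn embryos. Its other values were 8.87, 9.09 and 9.41 in Ts66Yah embryos, against 8.78, 9.11 and 9.37 in EupTs66Yah embryos, and the log2 changes were -0.035 (SE 0.051) in Ts65Dn and -0.016 (SE 0.050) in Ts66Yah. Kept in, the low-spread array, which read 6.40, moved the Ts66Yah change to 0.097.

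Rrp1b, a nucleolar protein, was among the 6 members with the smallest p in Ts65Dn, with 5.67, 6.35 and 6.67 in Ts65Dn embryos, against 5.80, 6.23 and 6.49 in EupTs65Dn embryos. There 16 of 23 Ts65Dn embryos exceeded the euploid median, and the log2 change was 0.11 (SE 0.074), adjusted p = 0.926. In the Ts66Yah colony its values were 6.78, 7.26 and 7.58 in Ts66Yah embryos, against 6.78, 7.32 and 7.59 in EupTs66Yah embryos, a change of -0.030 (SE 0.060, all arrays 0.053). Its paralogue Rrp1 had the smallest SE of all members in Ts65Dn and in Ts66Yah without the low-spread array, but an SE of 0.19 with all arrays, where Dip2a had the smallest (0.066). Rrp1 gave log2 changes of -0.013 (SE 0.042) in Ts65Dn and 0.0021 (SE 0.035, all arrays 0.20) in Ts66Yah. Pwp2, of the small ribosomal subunit processome, stood at -0.0072 (SE 0.084) and 0.057 (SE 0.089, all arrays 0.15). Wdr4, the partner of a tRNA methyltransferase, stood at 0.13 (SE 0.10) in Ts65Dn, where 18 of 23 embryos were above the euploid median, and at 0.0030 (SE 0.080, all arrays -0.016) in Ts66Yah. Ybey, a mitochondrial ribosomal RNA endonuclease, had changes of -0.14 (SE 0.11) and 0.0010 (SE 0.10, all arrays 0.0077), and Mcm3ap, which is part of mRNA export, of 0.054 (SE 0.071) and -0.086 (SE 0.055, all arrays -0.045).

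Regulators of transcription and protein modification were likewise not called. Pknox1, a homeodomain partner of Pbx and Hox proteins, measured 5.74, 6.11 and 6.59 in Ts65Dn embryos, against 5.56, 6.08 and 6.29 in EupTs65Dn embryos. It measured 6.67, 7.32 and 7.53 in Ts66Yah embryos, against 6.87, 7.32 and 7.68 in EupTs66Yah embryos, with log2 changes of 0.082 (SE 0.067) in Ts65Dn and -0.047 (SE 0.067, all arrays -0.021) in Ts66Yah. Sik1, a kinase that holds CREB coactivators in the cytoplasm, gave 6.93, 7.50 and 7.81 in Ts65Dn embryos, against 6.96, 7.53 and 7.85 in EupTs65Dn embryos. Its Ts66Yah colony values were 7.54, 8.17 and 8.40 in Ts66Yah embryos, against 7.57, 8.12 and 8.64 in EupTs66Yah embryos, and the changes were -0.047 (SE 0.071) and 0.016 (SE 0.067, all arrays 0.063). Sumo3, a small ubiquitin-like modifier, measured 8.98, 9.14 and 9.36 in Ts65Dn embryos, against 8.90, 9.20 and 9.42 in EupTs65Dn embryos, a change of -0.056 (SE 0.046). In Ts66Yah the change was 0.038 (SE 0.043), from 9.67, 9.93 and 10.27 in Ts66Yah embryos, against 9.71, 9.88 and 10.08 in EupTs66Yah embryos, and 0.22 with the low-spread array. Dnmt3l, a cofactor of DNA methyltransferases active mainly in germ cells, had changes of 0.21 (SE 0.14) in Ts65Dn and -0.22 (SE 0.15, all arrays -0.25) in Ts66Yah, with 16 of 23 and 4 of 24 trisomic embryos above the euploid median. The Dnmt3l probe set lay below the median signal in both colonies.

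Dip2a, a disco-interacting protein expressed in brain, measured 6.13, 6.71 and 6.99 in Ts65Dn embryos, against 6.41, 6.75 and 7.02 in EupTs65Dn embryos. The Ts66Yah colony gave 7.20, 7.66 and 8.15 in Ts66Yah embryos, against 7.40, 7.69 and 7.96 in EupTs66Yah embryos. Its log2 changes of -0.094 (SE 0.065) and -0.061 (SE 0.059, all arrays -0.064) were below 0 in both models without passing. Pcnt, the scaffold of the centrosome, measured 5.40, 5.67 and 6.29 in Ts65Dn embryos, against 5.03, 5.68 and 6.21 in EupTs65Dn embryos. It measured 6.50, 7.14 and 7.65 in Ts66Yah embryos, against 6.54, 7.23 and 7.55 in EupTs66Yah embryos, with changes of 0.079 (SE 0.086) in Ts65Dn and -0.038 (SE 0.081, all arrays 0.087) in Ts66Yah. Cstb, an inhibitor of lysosomal cysteine proteases, gave 6.49, 6.97 and 7.41 in Ts65Dn embryos, against 6.61, 6.91 and 7.43 in EupTs65Dn embryos. Its other values were 7.49, 8.02 and 8.87 in Ts66Yah embryos, against 7.62, 8.04 and 8.23 in EupTs66Yah embryos, and the changes were -0.032 (SE 0.082) and 0.060 (SE 0.074, all arrays 0.11). The vesicle tethering subunit gene Trappc10 stood at -0.0040 (SE 0.061) and -0.054 (SE 0.049, all arrays 0.033), and Pttg1ip, which binds securin, at 0.096 (SE 0.068) and 0.051 (SE 0.055, all arrays 0.15).

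S100b, a calcium-binding protein of astrocytes that maturing oligodendrocytes also make, had the largest SE of the 44 members in Ts66Yah. Its probe set lay below the median signal in both colonies. Its signals were 3.24, 4.29 and 6.43 in Ts66Yah embryos, against 3.20, 4.20 and 5.92 in EupTs66Yah embryos. The highest values belonged to single embryos in both groups, and 14 of 24 Ts66Yah embryos lay above the euploid median. The change was 1.25-fold with a 95% interval of 0.962 to 1.62 (log2 0.32 (SE 0.19, all arrays 0.23), adjusted p = 0.501), which holds both no change and the triplicated median. In the Ts65Dn colony it measured 2.63, 3.12 and 4.32 in Ts65Dn embryos, against 2.56, 3.09 and 3.61 in EupTs65Dn embryos, a change of 0.095 (SE 0.11). Astrocyte markers had the higher mean for 6 of 8 in Ts66Yah (median log2 change 0.076, 0 called; with all arrays 8 of 8, median 0.23, 0 called) and for 4 of 8 in Ts65Dn (median 0.0060, 0 called). Their mean ran from 8.54 to 9.47 in Ts66Yah against 8.63 to 9.39 in EupTs66Yah. Of 7 oligodendrocyte lineage markers 6 had the higher mean in Ts66Yah (median log2 change 0.26, and 0.30 with all arrays). Of the 7, 2 passed, against 0.932% of all probe sets: Gjc3 (1.59-fold, adjusted p = 0.0291) and Mbp (1.53-fold, adjusted p = 0.0503). With all arrays 2 passed as well, against 0.171%. In Ts65Dn 6 of the 7 had the higher mean, with a median of 0.18 and 0 called. Their mean ran from 5.51 to 6.66 in Ts66Yah against 5.51 to 6.56 in EupTs66Yah, and the part of the oligodendrocyte lineage in the S100b values was not tested.

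Cryaa, a lens crystallin and small heat shock protein, was the member furthest below its euploid group in Ts66Yah. It measured 3.36, 3.97 and 4.96 in Ts66Yah embryos, against 3.65, 4.34 and 5.27 in EupTs66Yah embryos, with only 5 of 24 Ts66Yah embryos above the euploid median. The change was 0.816-fold (log2 -0.29 (SE 0.12), adjusted p = 0.304), and 0.764-fold with the low-spread array, where Cryaa read 6.60 (adjusted p = 0.399). In the Ts65Dn colony it measured 3.11, 3.71 and 4.54 in Ts65Dn embryos, against 2.94, 3.69 and 4.87 in EupTs65Dn embryos, a change of 0.042 (SE 0.13). This probe set lay below the median signal on the arrays. Lrrc3, a leucine-rich repeat membrane protein, measured 5.25, 6.09 and 6.70 in Ts65Dn embryos, against 5.91, 6.35 and 6.62 in EupTs65Dn embryos. Only 7 of 23 Ts65Dn embryos lay above the euploid median, and the log2 change was -0.18 (SE 0.095), adjusted p = 0.884. In the Ts66Yah colony Lrrc3 measured 6.50, 7.04 and 7.35 in Ts66Yah embryos, against 6.35, 6.97 and 7.32 in EupTs66Yah embryos, a change of 0.12 (SE 0.078, all arrays 0.17).

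The remaining members are genes of specialised tissues. Rsph1, a radial spoke protein of motile cilia, had log2 changes of 0.066 (SE 0.18) in Ts65Dn and 0.19 (SE 0.13, all arrays 0.23) in Ts66Yah, where 18 of 24 embryos lay above the euploid median. Markers of choroid plexus and ependyma, the ciliated lining of the ventricles, had the higher mean for 5 of 9 in Ts65Dn and 6 of 9 in Ts66Yah, with median changes of 0.012 and 0.037 (7 of 9 and 0.12 with all arrays). Tff3, a mucosal peptide, stood at 0.11 (SE 0.12) and 0.12 (SE 0.13, all arrays -0.0088), and Tmprss3, a protease needed for hearing, at 0.057 (SE 0.087) and 0.11 (SE 0.12, all arrays -0.0036). Hsf2bp, a factor of meiotic recombination, stood at 0.058 (SE 0.13) and 0.027 (SE 0.10, all arrays -0.035), and Umodl1 at -0.059 (SE 0.12) and -0.0084 (SE 0.11, all arrays -0.083). All of these probe sets were below the median signal.

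The pathways around the members were examined through 10 lists of partner genes. They cover methionine and transsulfuration, folate, cholesterol, basement membrane and collagen VI, nucleolar ribosome assembly, RNA editing and splice site recognition, SUMO conjugation, pericentriolar material, the TRAPP complex, and phosphofructokinase with vitamin B6. Of 144 partner genes 124 were measured and 0 passed in Ts65Dn, in Ts66Yah without the low-spread array or with it, against the 0.491%, 0.932% and 0.171% of probe sets given above. List medians ranged from -0.050 to 0.018 in Ts65Dn, where 54 of the 124 had the higher mean. They ranged from -0.055 to 0.084 in Ts66Yah without the low-spread array, with 71 of 124 higher, and from -0.0024 to 0.20 with all arrays, with 108 of 124 higher.

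The partner with the smallest p differed by list. In Ts65Dn it was Ahcy, which hydrolyses S-adenosylhomocysteine, for the methionine list (0.914-fold, adjusted p = 0.887) and the folate receptor Folr1 for the folate list (1.15-fold, adjusted p = 0.717). Tbl3, of the small subunit processome, led the nucleolar list (0.845-fold, adjusted p = 0.865). In Ts66Yah without the low-spread array Ahcy was at 1.13-fold (adjusted p = 0.311), and Syvn1, a ubiquitin ligase of endoplasmic reticulum quality control, at 1.16-fold (adjusted p = 0.127). Tubgcp6, of the gamma-tubulin ring complex, stood at 1.38-fold there (adjusted p = 0.151). Of 10 further Hsa21 orthologues of the same regions 9 were measured. Of these 0 passed in Ts65Dn, against 0.491% of probe sets. In Ts66Yah 0 passed without the low-spread array, against 0.932%, and 0 with it, against 0.171%. Ndufv3, a complex I subunit gene, had the smallest p of these in Ts66Yah, at 1.15-fold (adjusted p = 0.194). With all arrays Ahcy stood at 1.19-fold, Syvn1 at 1.16-fold, Tubgcp6 at 1.31-fold and Ndufv3 at 1.21-fold, none of them called.

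Whether a member responded differently in the 2 models was tested as the Ts65Dn effect minus the Ts66Yah effect in 1 fit of all groups. None of the 44 passed without the low-spread array, against 0.149% of probe sets, or with it, against 0.00901%. At an unadjusted p under 0.05 there were 3 members without it, against 7.14% of probe sets, and 4 with it, against 7.05%. Icosl had the largest difference, -0.60 (SE 0.19) on the log2 scale with a 95% interval of -0.99 to -0.21 (p = 0.00266, adjusted p = 0.415), and -0.57 (SE 0.20) with all arrays. It lay below its euploid group in Ts65Dn and above it in Ts66Yah. Lrrc3 ran the same way, by -0.30 (SE 0.12) (adjusted p = 0.577), and Dnmt3l the other, by 0.44 (SE 0.21) (adjusted p = 0.684). Col18a1 differed by 0.14 (SE 0.15) with an interval of -0.14 to 0.43, which does not show that its changes were alike. Of the 44 members, 16 had the higher mean in both trisomic groups and 6 the lower mean in both. In 7 the mean was higher in Ts65Dn and lower in Ts66Yah, and in 15 the reverse. With all arrays these counts were 13, 3, 10 and 18. Colony, litters and arrays differ between the models, so a difference of effects and a difference of colonies cannot be told apart.

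**Figure D5:**
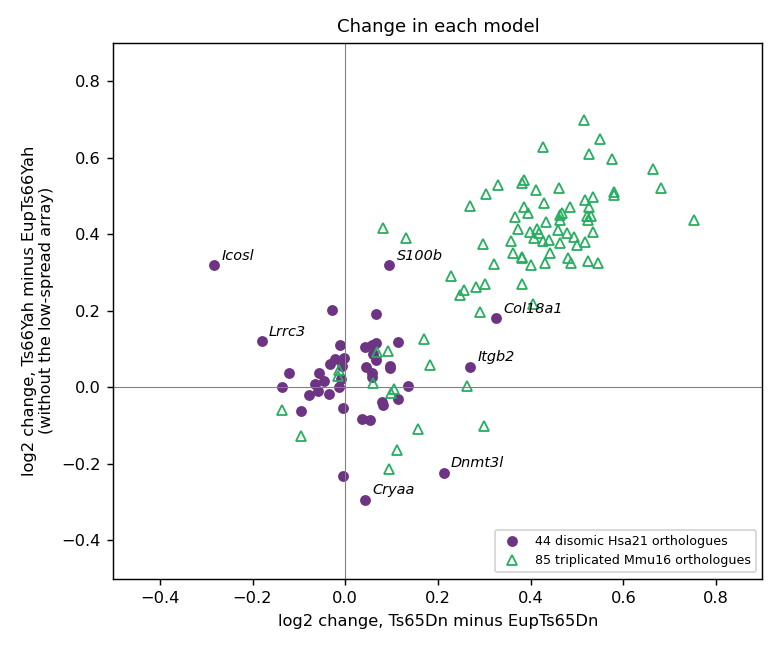
Log2 change in Ts66Yah minus EupTs66Yah without the low-spread array (vertical) against Ts65Dn minus EupTs65Dn (horizontal), with a filled circle for each of 44 disomic orthologues and an open triangle for each of 85 triplicated ones. The disomic genes gather around 0 on both axes, with Icosl at -0.28 and 0.32 and Col18a1 at 0.32 and 0.18, while most triplicated genes lie near 0.4 on both.

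Covariation of members with each other and with cell type markers was measured over embryos within each group, the low-spread array left out, for 6 pairs in 4 groups, or 24 correlations. S100b followed the mean of 8 astrocyte markers in Ts66Yah (n = 24), with r = 0.65 (permutation p = 0.0009, adjusted p = 0.0216) and rho = 0.59 (permutation p = 0.00267, adjusted p = 0.0641). Without the 2 embryos farthest from the median S100b signal r was 0.52 (adjusted p = 0.168), and with values centred on each litter it was 0.69 (adjusted p = 0.130). The call was thus not kept in either setting, while r stayed positive in both. In the other groups r was 0.48 in Ts65Dn, 0.18 in EupTs65Dn and 0.37 in EupTs66Yah, with adjusted p of 0.183, 0.767 and 0.403. The neighbours Col6a1 and Col6a2 had r of 0.044 in Ts65Dn, -0.24 in EupTs65Dn, 0.33 in Ts66Yah and 0.070 in EupTs66Yah, none with an adjusted p under 0.10. The pairs of Col6a1 with Col18a1 and with pericyte and meningeal markers, of Itgb2 with microglial markers and of Rsph1 with choroid plexus and ependymal markers gave no adjusted p under 0.10 either. In Ts65Dn, EupTs65Dn, Ts66Yah and EupTs66Yah in turn, r of Itgb2 with microglial markers was 0.091, -0.37, 0.23 and 0.093. For Rsph1 it was 0.069, 0.10, -0.19 and 0.13, and for Col6a1 with Col18a1 -0.0074, -0.20, 0.40 and 0.47.

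Differences between litters were examined after the genotype results had been seen, with an F test in limma on litter within each colony. None of the 44 members passed in the Ts65Dn colony, where 0.378% of probe sets did, or in the Ts66Yah colony, where 0.0901% did. Unadjusted p was under 0.05 for 9 of 44 members in the Ts65Dn colony, against 10.7% of probe sets, and for 5 of 44 in the Ts66Yah colony, against 11.5%. Cstb, the cysteine protease inhibitor gene, had the smallest p in the Ts65Dn colony, with litter means between -0.22 and 0.21 around the group means on the log2 scale (adjusted p = 0.241). Sik1, the CREB coactivator kinase gene, spanned -0.22 to 0.16 (adjusted p = 0.295). Icosl spanned -0.39 to 0.44 between litters (adjusted p = 0.342), against a genotype change of -0.28 in the same colony. Mcm3ap, of mRNA export, had the smallest p in the Ts66Yah colony, with litter means between -0.22 and 0.16 (adjusted p = 0.244). The SD of a member within its groups ran from 0.117 to 0.592 in the Ts65Dn colony, with a median of 0.276, and from 0.102 to 0.662 in the Ts66Yah colony, with a median of 0.269.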

How the data were processed

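Forebrain RNA of 89 embryos was measured with 1 Clariom S array each. The authors deposited log2 signals per probe set made with RMA, per the submitters' processing notes (background correction, quantile normalization and 1 summary value per probe set). The sources used here do not name its version. Precision is set by how many arrays each group has. Of 22206 probe sets 19572 carried 1 gene symbol and 2634 were unnamed in the platform table; symbols were updated through a mouse reference gene table, which also gave the gene order.

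Genotypes were compared within each colony with limma 3.58.1 in R 4.3.3 (lmFit and eBayes, two-sided, genotype only), Benjamini-Hochberg adjusted across the 22206 probe sets, with no filter on signal and the threshold of 10% that the series names. The steps were tested on simulated data with known changes. Values were drawn independently for each embryo, without litters or the low-spread array, and only probe sets at or above the median signal were changed. The simulation therefore does not cover litters, that array or members of low signal. Medians, intervals and counts were computed in Python 3.11.15 with pandas 2.3.3, and figures drawn with matplotlib 3.10.9. Correlations were tested within groups by permutation (100000 resamples, two-sided), adjusted over 24. Nothing in the labels says that embryos of 1 litter are independent, so p-values measure the spread between these embryos.

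The members, lists, tests and alternatives were chosen with earlier results of these data known, including the low-spread array. Signals by group are given for the 6 members with the smallest p in each comparison and for a fixed set of well-studied members; every member may be named with its change, and of each partner list the member with the smallest p. The text gives a part of those partners. Litters come from the dam named in the labels; replicate numbers carry no pairing, so the litter entered as a block as an alternative. Alternatives were also sex as a covariate, the methods' t-test, a threshold of 0.05, the marginal criterion, a filter at the median mean signal, centring on the array median, quantile normalization, a trended and robust prior, array weights, each litter left out in turn, and leaving out the 4 arrays that resemble the opposite genotype. Sex came from the labels, and 3 Y-linked genes went against it in 16 of 88 arrays, the low-spread array aside, so the covariate is of limited use. Of these 16 arrays, 1 also resembled the opposite genotype by its Mmu16 genes. Whether samples were exchanged or sex labels were wrong was not tested. Leaving out these 16 and the 4 arrays together was an alternative added after seeing the data. The series text counts more Ts66Yah arrays than are labelled so here, and the labels were followed. No genome position is printed, because the sources used here do not name the build of the array annotation.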

Additional observations from a re-analysis of the deposited data

How the results depend on the processing

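No member was called under the alternatives tried except by the marginal criterion, which gave 1 member in Ts65Dn, Col18a1, and 1 in Ts66Yah without the low-spread array, Icosl. The shares of all probe sets called under the other alternatives are not given here. Counts of 0 members called under them are therefore not read as a result about the members. With the litter as a block, 0 members were called in either model or in the difference of effects, and the median member change was 0.028 in Ts65Dn and 0.032 in Ts66Yah without the low-spread array (0.070 with it). The count of members whose interval lies below the triplicated median ran from 37 to 41 in Ts65Dn and from 35 to 41 in Ts66Yah without the low-spread array when each litter was left out in turn, and it was 22 of 27 with that array kept and a filter at the median mean signal, where fewer members are tested. The 1 correlation called became 0 with values centred on litters and 0 without the 2 farthest embryos. The sign of the change turned under some of 16 alternatives for 21 of 44 members in Ts65Dn, 22 in Ts66Yah with all arrays and 19 without the low-spread array, all of them uncalled; the cause was not tested. Among the members named for a small p, the log2 change of Col6a2 in Ts65Dn was 0.00016 with the litter block, 0.0050 without the arrays in doubt, and ran from -0.094 to 0.039 with 1 litter left out, and that of Cryaa ran from -0.066 to 0.13. In Ts66Yah with all arrays, Itgb2 was 0.00062 with the litter block, 0.0016 with array weights and -0.21 to 0.074 with 1 litter left out. Rrp1b was -0.0023 with centred arrays, -0.019 with array weights and -0.069 to 0.15 with 1 litter left out, and Lss -0.064 to 0.28. Without the low-spread array Lss was -0.0062 with centred arrays and -0.064 to 0.070 with 1 litter left out, Itgb2 -0.11 to 0.16 and Rrp1b -0.069 to 0.038, and Rrp1b was 0.00089 without the arrays in doubt. Col18a1 kept a positive change in Ts65Dn under all 16 alternatives (0.25 to 0.38, adjusted p 0.195 to 0.770), and Icosl in Ts66Yah without the low-spread array under all 15 (0.23 to 0.38, adjusted p 0.108 to 0.536). Leaving out the 19 arrays in doubt by Mmu16 level or sex label, chosen after the data were seen, gave 0 members called, median member changes of 0.013 in Ts65Dn and 0.033 in Ts66Yah without the low-spread array (0.13 with it), and 36, 40 and 37 members with an interval below the triplicated median. Signal lay below the array median for 15 members in both colonies and for 2 in 1 colony, and the median SE was larger among such members (0.13 against 0.070 in Ts65Dn, 0.12 against 0.066 in Ts66Yah without the low-spread array). The 15 were Umodl1, Tff3, Tmprss3, Ubash3a, Rsph1, Cryaa, Hsf2bp, S100b, Ybey, Ftcd, Itgb2, Trpm2, Aire, Dnmt3l and Icosl. The 2 were Col6a2 in the Ts65Dn colony and Wdr4 in the Ts66Yah colony.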
